A study of Homo sapiens with 9 samples.

Results

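LGR5, AXIN2, NKD1, SP5 and MYC are genes switched on by canonical Wnt signalling in intestinal crypts, and their levels were examined in HT-29 cells, an established epithelial line from a human colon adenocarcinoma. The 5 genes were chosen by symbol from the array's platform annotation, where each has 1 row, among 14884 named genes. These genes, and the gene lists counted below, were chosen with earlier results of these data known. Their counts and ranks beside all genes may partly reflect that choice. The 9 Affymetrix whole-transcript arrays comprise 3 of untreated cells, which received the vehicle, 3 of cells given rosemary extract and 3 of cells given carnosic acid, a phenolic diterpene of rosemary. All cells were grown in McCoy's 5A medium with serum and collected at 24 h, and since no label states a concentration, the doses cannot be called matched. The 3 arrays of a group are described as biological replicates of 1 cell line. Values are deposited RMA expression values (log2), and "level" below means that log2 value.

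In canonical Wnt signalling, a complex built on the AXIN and APC scaffolds marks beta-catenin for destruction, and a Wnt ligand bound to its receptors stops that complex, so that beta-catenin enters the nucleus and activates genes with TCF factors. In the intestine this activity is highest at the crypt base, where it keeps stem cells and dividing progenitors. HT-29 cells carry truncated APC, as many colon cancers do, and their beta-catenin activity therefore does not depend on ligand alone. LGR5 is a receptor for R-spondins and the classical marker of crypt base stem cells. AXIN2 is an inducible scaffold of the destruction complex, and NKD1 binds Dishevelled, so both are feedback inhibitors. SP5 is a zinc finger factor of the SP family, and MYC is the basic helix-loop-helix factor that drives growth and proliferation.

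Of the 5 genes, only SP5 had an entry in the RefSeq promoter table used here. Its upstream window is shown because the core letters bound by TCF and LEF factors, CTTTGA, recur in it. The window covers the 250 bases before the gene start on the plus strand of GRCh38.p14, chr2:170715087-170715336, and matches on either strand are in capitals.
SP5 upstream window: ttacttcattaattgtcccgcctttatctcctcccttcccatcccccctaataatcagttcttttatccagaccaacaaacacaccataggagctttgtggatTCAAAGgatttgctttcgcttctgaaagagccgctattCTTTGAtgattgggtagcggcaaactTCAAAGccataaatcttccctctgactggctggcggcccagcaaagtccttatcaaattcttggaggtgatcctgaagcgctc
The 3 matches lie 147 to 142, 109 to 104 and 83 to 78 bases before the start, with the middle match on the plus strand and the outer ones on the minus strand. Of 35116 upstream windows of this length, 11.2% hold at least 1 match and 0.0655% hold at least 3 (23 windows). The E-box letters CACGTG, which MYC and MAX dimers bind, have 0 matches in the SP5 window and occur in 6.34% of all windows. A match describes letters only and shows no binding.

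All 5 genes lay above the level of 4.50 under which the dimmest 25% of genes were left out, and 11163 genes were tested. With rosemary extract 4 of the 5 genes passed an adjusted p under 0.05, 2 higher and 2 lower, where 38.1% of all genes tested passed (21.8% higher and 16.3% lower). With carnosic acid 4 passed, 1 higher and 3 lower, where 19.0% of all genes passed (12.9% higher and 6.12% lower, or 1440 and 683 genes). That split depended on scaling: with each array centred on the median of all rows it was 1650 higher and 473 lower, and with cyclic loess 1350 and 872. With each array centred on the median of the genes tested it was 1207 higher and 1098 lower. The extract split, 2439 higher and 1817 lower as reported, was 2564 and 1568 with centring over all rows. Centring over the genes tested gave 2256 and 2118 there. Between the treatments 4 passed, 2 higher and 2 lower with the extract, where 17.3% of all genes passed (8.24% higher and 9.07% lower). Genes were thus called often across the array, and the sizes below carry more than the counts. Over all genes tested the median log2 change was -0.018 with the extract and -0.011 with carnosic acid.

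**Figure D1:**
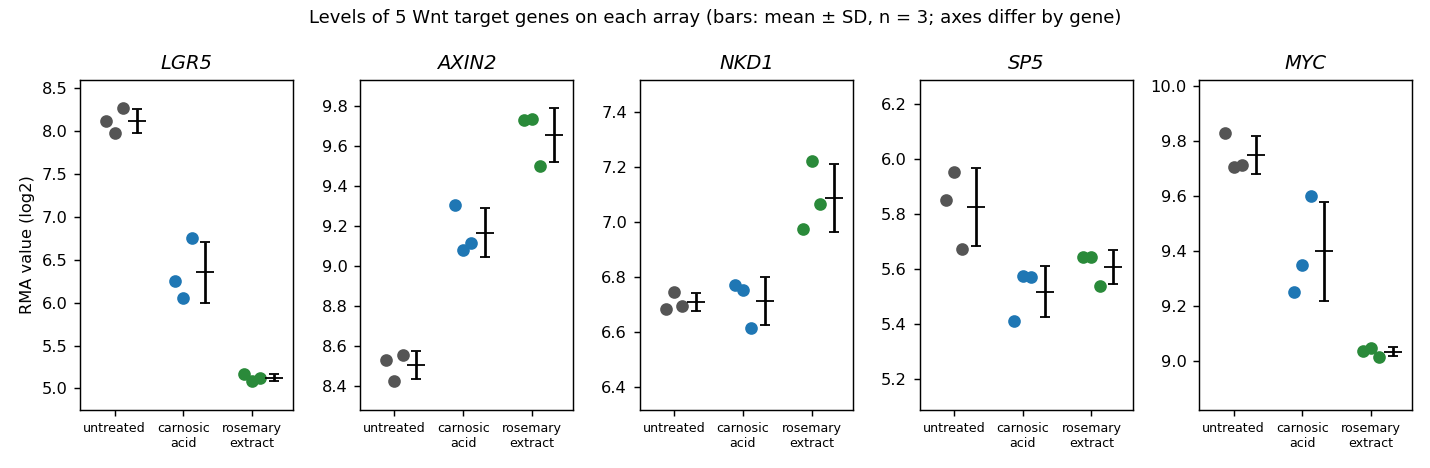
RMA values (log2, vertical axes, which differ in range between genes) of LGR5, AXIN2, NKD1, SP5 and MYC on each of the 9 arrays, with points for arrays and bars for the mean ± SD of 3 arrays. LGR5 and MYC step down and AXIN2 steps up from untreated through carnosic acid to rosemary extract, NKD1 is higher with rosemary extract only, and SP5 lies between 5.41 and 5.95 on all arrays.

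LGR5 fell with both treatments. Its levels were 8.11, 7.97 and 8.26 on the untreated arrays, 6.25, 6.06 and 6.75 with carnosic acid, and 5.17, 5.09 and 5.12 with rosemary extract. The 3 groups did not overlap, and the extract arrays lay closest together. How many of all genes tested have groups without overlap was not counted, so here and below that trait only describes the values. The group means were 8.11 ± 0.14, 6.35 ± 0.36 and 5.13 ± 0.04 (SD, n = 3). With the extract LGR5 fell by 2.99 ± 0.15 (log2, SE), which is 7.93-fold lower (95% interval of the log2 change -3.32 to -2.66, adjusted p = 7.02e-08). No other gene among the 11163 fell by more on the log2 scale. With carnosic acid it fell by 1.76 ± 0.15, 3.39-fold lower (interval -2.09 to -1.43, adjusted p = 2.06e-05), and 1 gene fell by more. Between the treatments LGR5 was 2.34-fold lower with the extract (log2 difference -1.23 ± 0.15, interval -1.56 to -0.90, adjusted p = 0.000175). Replicate 3 of carnosic acid stood nearest to the untreated arrays, and without it LGR5 fell by 1.96 (adjusted p = 7.34e-06). RMA compresses large changes and gives no detection call, so how much LGR5 signal remained at 5.13 cannot be read from these arrays. In RNA from whole cultures, fewer cells of a type and less RNA per cell cannot be told apart.

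AXIN2 moved in the opposite direction to LGR5 on the same arrays. Its levels were 8.53, 8.42 and 8.55 without treatment, 9.31, 9.08 and 9.11 with carnosic acid, and 9.73, 9.74 and 9.50 with the extract. Every carnosic acid array lay above every untreated array, and every extract array above both. The means were 8.50 ± 0.07, 9.16 ± 0.12 and 9.65 ± 0.13 (SD, n = 3). AXIN2 rose by 1.15 ± 0.08 (log2, SE) with the extract, a 2.22-fold rise (interval 0.97 to 1.33, adjusted p = 6.85e-07), and by 0.66 ± 0.08 with carnosic acid, a 1.58-fold rise (interval 0.48 to 0.84, adjusted p = 0.000227). The extract arrays were 1.40-fold higher than the carnosic acid arrays (log2 difference 0.49 ± 0.08, adjusted p = 0.00144). Among the 5239 genes higher with the extract than without, AXIN2 ranked 208 by the size of the difference.

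NKD1 rose with the extract. Its levels were 6.68, 6.74 and 6.70 in untreated cells, 6.77, 6.75 and 6.61 with carnosic acid, and 6.97, 7.22 and 7.07 with the extract. The extract arrays lay above all others, while carnosic acid and untreated arrays overlapped. The rise with the extract was 0.38 ± 0.08 (log2, SE), or 1.30-fold (interval 0.19 to 0.56, adjusted p = 0.00369). By size it ranked 1677 among the 5239 genes higher with the extract, so changes of this size were common. With carnosic acid the difference was 0.0053 (interval -0.18 to 0.19, adjusted p = 0.973), an interval that leaves room for a change of up to 0.19 either way. The direct difference between the treatments was 0.37 ± 0.08 (adjusted p = 0.00933), and without rosemary extract replicate 2, the highest array, it was 0.31 (adjusted p = 0.0507).

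SP5, the gene whose upstream window is printed above, had the smallest difference from untreated with the extract and no call that held across settings. SP5 was also the dimmest of the 5, with a mean of 5.65 over the 9 arrays, among the lowest 50% of genes. How far low signal limited its differences was not tested. Its levels were 5.85, 5.95 and 5.67 in untreated cells, 5.41, 5.57 and 5.57 with carnosic acid, and 5.65, 5.64 and 5.54 with the extract. Untreated arrays were the highest, by a gap of 0.029 to the nearest extract array and 0.10 to the nearest carnosic acid array. The difference was -0.31 ± 0.10 (log2, SE) with carnosic acid (interval -0.52 to -0.10, adjusted p = 0.0431). That call passed in 5 of 19 alternative settings, and leaving out any 1 array other than untreated replicate 3 ended it (adjusted p from 0.0509 to 0.158). The difference with the extract was -0.22 ± 0.10 (interval -0.43 to -0.0087, adjusted p = 0.0968). This difference ranked 2316 by size among the 5923 genes lower with the extract. It passed without untreated replicate 3, the lowest untreated array (-0.29, adjusted p = 0.0365). Extract and carnosic acid arrays overlapped, and their difference of 0.090 had an interval from -0.12 to 0.30 (adjusted p = 0.618).

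MYC fell with both treatments. Its levels were 9.83, 9.70 and 9.71 in untreated cells, 9.25, 9.35 and 9.60 with carnosic acid, and 9.04, 9.05 and 9.01 with the extract. The groups did not overlap, but carnosic acid replicate 3 came within 0.11 of the lowest untreated array. The means were 9.75 ± 0.07, 9.40 ± 0.18 and 9.03 ± 0.02 (SD, n = 3). The fall was 0.72 ± 0.08 (log2, SE) with the extract, 1.64-fold lower (interval -0.89 to -0.54, adjusted p = 2.53e-05). With carnosic acid MYC fell by 0.35 ± 0.08, 1.28-fold lower (interval -0.53 to -0.17, adjusted p = 0.0101), and without replicate 3 it fell by 0.45 (adjusted p = 0.000907). The extract arrays were 1.29-fold lower than the carnosic acid arrays (log2 difference -0.36 ± 0.08, adjusted p = 0.00818). Among the 5923 genes lower with the extract than without, MYC ranked 480 by the size of the difference.

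**Figure D2:**
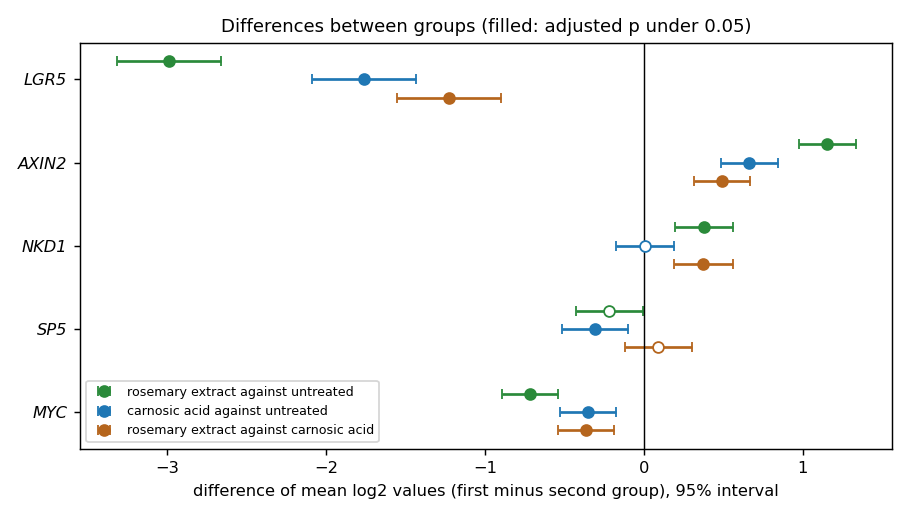
Differences of mean log2 values (horizontal axis) with 95% intervals for the 5 genes in the 3 comparisons, filled where the adjusted p was under 0.05. LGR5 has the largest differences (-2.99 and -1.76 against untreated), AXIN2 lies on the other side of 0 (1.15 and 0.66), and the intervals of NKD1 with carnosic acid and of SP5 between the treatments cross 0.

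Both comparisons with untreated cells use the same 3 untreated arrays, so their values are set side by side without a measure of their likeness. The size of the direct difference does not depend on those arrays, although its error and p do, since all groups were fitted together. In it LGR5 and MYC were lower and AXIN2 and NKD1 higher with the extract, and SP5 was not called. The order of the groups was untreated, carnosic acid, rosemary extract for LGR5 and MYC from high to low, and the reverse for AXIN2, with each neighbouring step called. For NKD1 the step from untreated to carnosic acid was not called, and for SP5, ordered untreated, extract, carnosic acid from high to low, neither neighbouring step was called.

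The genes whose levels tracked each gene most closely over the 9 arrays were named by Pearson's r, which here mostly reflects the 3 groups that all genes share. For LGR5 they were MEIS2 (r = 0.993), CCNG1 (r = 0.993), PAPSS2 (r = 0.993), HSD17B11 (r = 0.992) and HOXB7 (r = 0.992). Of these HSD17B11 changed most, with -1.86 (log2) under the extract and -1.04 under carnosic acid. AXIN2 was tracked by MAPK6 (r = 0.999), IGF2R (r = 0.998) and RIT1 (r = 0.998), and MYC by NUP93 (r = 0.990), ABHD10 (r = 0.987) and STX10 (r = 0.987). Values of r above 0.9 were reached by 562 genes for LGR5, 1210 for AXIN2 and 603 for MYC, so such likeness is common. NKD1 had 73 such genes, led by DUSP13A, AGTRAP and PEX11A (r = 0.967, 0.966 and 0.966). SP5 had 22, led by STARD8, UCN3 and CLBA1 (r = 0.952, 0.950 and 0.948).

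Other genes of the Wnt pathway were counted from 6 lists ordered by role, of which 56 of 116 genes were tested, 15 were too dim and 45 had no row named in the annotation used here. Beta-catenin itself (CTNNB1), TCF7, TCF7L2, the Dishevelled genes and EPHB2 are among the unnamed. Over the 6 lists 10 genes were called higher and 17 lower with the extract (48.2% of those tested), 11 higher and 8 lower with carnosic acid (33.9%), and 3 higher and 11 lower between the treatments (25%). These shares stand beside 38.1%, 19.0% and 17.3% of all genes. The lists' median log2 changes against untreated were -0.13 with the extract and -0.060 with carnosic acid.

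**Figure D3:**
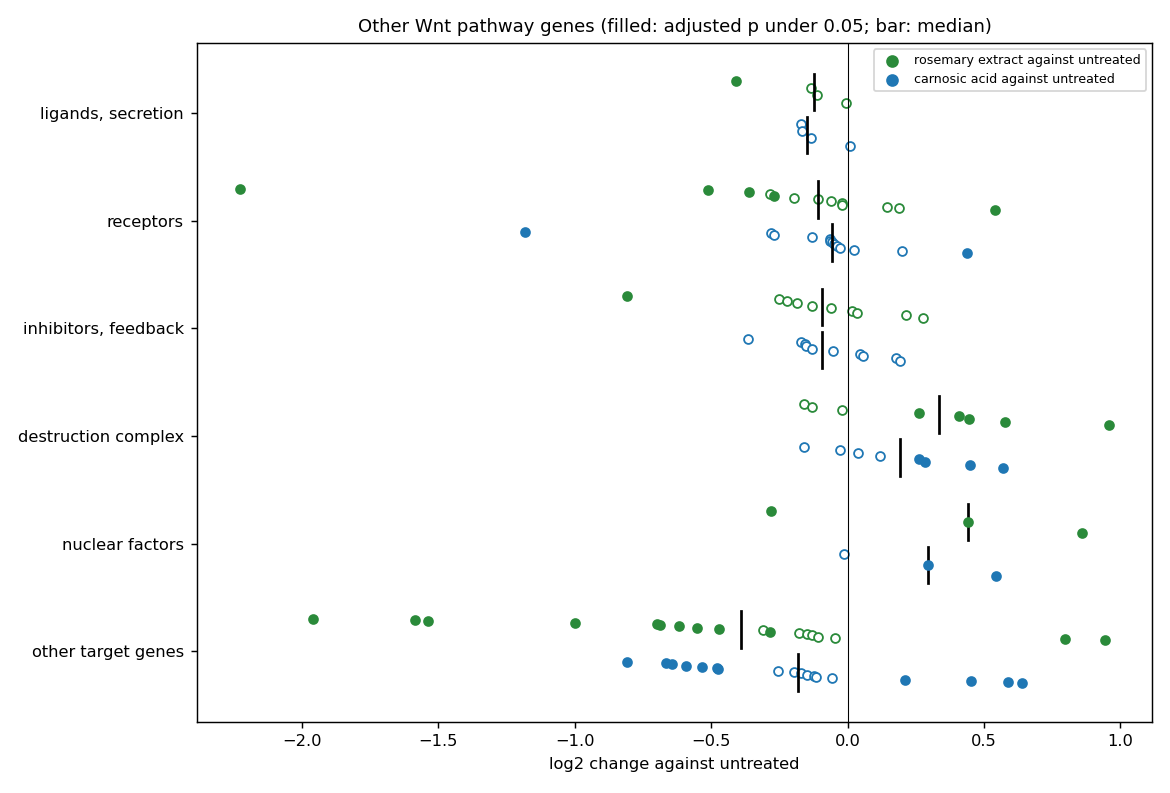
Log2 change against untreated (horizontal axis) of each tested Wnt pathway gene, by role, for rosemary extract (green) and carnosic acid (blue), filled where the adjusted p was under 0.05, with bars at list medians. The filled points of the destruction complex all lie above 0 (medians 0.33 and 0.19), and most filled points among other target genes lie below 0 (medians -0.39 and -0.18).

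Ligand and secretion genes were barely measured, with 4 of 24 tested. WLS, which carries Wnt proteins to the cell surface, fell by 0.41 ± 0.06 (log2, SE) with the extract (adjusted p = 0.000264). It was the only gene called there (25%, beside 38.1% of all genes). With carnosic acid 0 of 4 were called, beside 19.0% of all genes. The R-spondin genes RSPO1, RSPO2 and RSPO4, whose products are ligands of LGR5, were not called in any comparison. Their levels lay between 5.05 and 6.15 on all arrays, not far above the limit of 4.50, so a lack of calls may reflect low signal. Between the treatments WLS was lower with the extract (-0.24, adjusted p = 0.0187), a call lost without rosemary extract replicate 1 or 2 or carnosic acid replicate 1 (adjusted p from 0.0665 to 0.0708).

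Of 13 receptors tested, 1 was higher and 4 lower with the extract, against 1 and 1 with carnosic acid. The shares called, 38.5% and 15.4%, lie near those of all genes (38.1% and 19.0%). ROR1, a receptor tyrosine kinase for WNT5A, had levels of 9.54, 9.57 and 9.73 untreated, 8.19, 8.29 and 8.82 with carnosic acid, and 7.25, 7.40 and 7.50 with the extract. Its groups did not overlap, and it fell by 2.23 ± 0.14 with the extract (adjusted p = 2.80e-07) and by 1.18 ± 0.14 with carnosic acid (adjusted p = 0.000173). The co-receptor LRP5 fell by 0.36 with the extract (adjusted p = 0.000379). FZD7, a Frizzled receptor, rose by 0.54 with the extract and 0.44 with carnosic acid (adjusted p = 0.00138 and 0.0117). LGR4, the relative of LGR5 that also binds R-spondins, fell by 0.51 ± 0.14 with the extract (adjusted p = 0.0124), a call lost without untreated replicate 1 (0.0565) or rosemary extract replicate 2 or 3 (0.0531 and 0.0521). Without untreated replicate 1 or rosemary extract replicate 2 the lower count was 2, since the call of FZD8 (-0.27, adjusted p = 0.0394) was lost as well (0.118 and 0.148), which leaving out the second untreated array (0.0990) or the first extract array (0.0831) also did. FZD8 passed in 10 of 19 alternative settings.

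Of 10 inhibitors and feedback genes tested beside AXIN2 and NKD1, only DKK1 was called, or 10% with the extract beside 38.1% of all genes. DKK1 is secreted and blocks the LRP co-receptors. Its levels were 8.26, 8.13 and 8.13 untreated, 8.28, 8.26 and 8.51 with carnosic acid, and 7.46, 7.27 and 7.36 with the extract. It fell by 0.81 ± 0.08 (log2, SE) with the extract (adjusted p = 1.40e-05), was not called with carnosic acid (0.18, adjusted p = 0.167), and was lower with the extract than with carnosic acid by 0.99 (adjusted p = 9.94e-06). The paired ubiquitin ligases that remove Frizzled receptors, themselves known Wnt targets, were not called with the extract: ZNRF3 differed by 0.21 (adjusted p = 0.0812) and RNF43, named after its values were seen, by 0.017 (adjusted p = 0.829), with a sign that turned under cyclic loess (-0.027). A second gene of the list was called without rosemary extract replicate 3.

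Of 8 tested genes of the beta-catenin destruction complex, 5 were called higher and 0 lower with the extract, and 4 higher and 0 lower with carnosic acid, beside 21.8% and 12.9% of all genes called higher. BTRC, which recognises phosphorylated beta-catenin for ubiquitination, had levels of 6.99, 6.90 and 7.13 untreated, 7.59, 7.57 and 7.57 with carnosic acid, and 7.99, 7.91 and 7.99 with the extract. It rose by 0.96 ± 0.07 with the extract and 0.57 ± 0.07 with carnosic acid (adjusted p = 1.22e-06 and 0.000307), and was the gene of this list called between the treatments (0.39, adjusted p = 0.00331). The kinase gene GSK3A rose by 0.58 and 0.45 (adjusted p = 5.09e-05 and 0.00111). With the extract GSK3B (0.44), the BTRC relative FBXW11 (0.41) and the constitutive scaffold AXIN1 (0.26) also rose. APC and AMER1 were not called. With carnosic acid GSK3B (0.26, adjusted p = 0.0268) and FBXW11 (0.29, adjusted p = 0.0209) both lost their calls without carnosic acid replicate 1 (0.110 and 0.0628), which left 2 genes called. Other arrays whose omission ended the call of GSK3B were untreated replicates 2 and 3 (0.0909 and 0.0501) and the second of carnosic acid (0.0572). For FBXW11 they were untreated replicate 1 (0.0754) and the third of carnosic acid (0.0642). Over all alternatives GSK3B passed in 13 of 20 and FBXW11 in 16 of 20.

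Only 3 nuclear factors were tested. The beta-catenin coactivator gene BCL9 rose by 0.44 with the extract (adjusted p = 0.000349) and 0.29 with carnosic acid (adjusted p = 0.0124, but 0.0587 without carnosic acid replicate 1). The brighter of 2 rows of its relative BCL9L rose by 0.86 and 0.54 (adjusted p = 5.50e-06 and 0.000699), while its dimmer row gave -0.14 and -0.13, so the gene's direction is uncertain. PYGO2 was lower with the extract by 0.28 (adjusted p = 0.0347), a call lost on leaving out any of 5 arrays (untreated replicates 1 to 3 and rosemary extract replicates 1 and 3, adjusted p from 0.0635 to 0.109), and it passed in 13 of 20 alternatives.

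Of 18 other crypt and Wnt target genes tested, 10 were lower and 2 higher with the extract, and 7 lower and 4 higher with carnosic acid. Of all genes 16.3% were lower and 21.8% higher with the extract, and 6.12% lower and 12.9% higher with carnosic acid. PROM1, which encodes the stem cell surface protein CD133, had levels of 8.34, 8.26 and 8.33 untreated, 7.52, 7.47 and 7.51 with carnosic acid, and 6.97, 6.68 and 6.65 with the extract. It fell by 1.54 ± 0.09 (log2, SE) and 0.81 ± 0.09 (adjusted p = 1.39e-07 and 9.26e-05), and its groups did not overlap. The hyaluronan receptor CD44 fell by 0.999 and 0.48 (adjusted p = 2.94e-06 and 0.00251), and the transcription factor ETS2 by 0.70 and 0.48 (adjusted p = 6.60e-07 and 7.34e-05). CDCA7, a MYC-responsive gene, fell by 1.96 ± 0.15 with the extract (adjusted p = 1.03e-06). With carnosic acid CDCA7 was lower by 0.59 (adjusted p = 0.0154), a call that ended when the third untreated array (0.0508) or the first or second carnosic acid array (0.0722 and 0.0592) was left out. MYB, a progenitor factor named after its values were seen, fell by 1.59 and 0.67 (adjusted p = 5.77e-06 and 0.00852).

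Some target genes went the other way. The nuclear receptor gene PPARD rose by 0.80 and 0.45 (adjusted p = 8.41e-07 and 0.000307), and FOSL1, a partner of JUN named after its values were seen, by 0.94 and 0.64 (adjusted p = 0.000303 and 0.00993). JUN itself fell by 0.47 and 0.53 (adjusted p = 0.000304 and 0.000464). SOX9, also named after its values were seen, was higher with carnosic acid by 0.21 (adjusted p = 0.0351). That call passed in 11 of 20 alternatives. Between the treatments SOX9 was lower with the extract (-0.32, adjusted p = 0.00387). CEMIP, a hyaluronan-binding protein, was the gene of this list with opposite calls: its levels were 7.54, 7.34 and 7.39 untreated, 8.01, 7.87 and 8.15 with carnosic acid, and 6.63, 6.63 and 6.94 with the extract. It fell by 0.69 ± 0.10 with the extract (adjusted p = 0.000257), rose by 0.59 ± 0.10 with carnosic acid (adjusted p = 0.00238), and differed between them by -1.28 ± 0.10 (adjusted p = 7.10e-06). ASCL2, the stem cell factor that works with LGR5 in crypts, was named after its values were seen and was not called (-0.046 and -0.17, adjusted p = 0.726 and 0.210). Its levels were 6.23, 6.32 and 6.18 untreated, 5.96, 6.22 and 6.04 with carnosic acid, and an identical 6.20 on each extract array. OLFM4 and SMOC2, both crypt base markers, were too dim to test, with mean levels of 4.36 and 4.45.

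Genes that act with or downstream of MYC were counted next. Of 15 partners and regulators, 3 were higher and 3 lower with the extract, and 2 higher and 1 lower with carnosic acid, beside median log2 changes of 0.081 and 0.074. The shares called, 40% and 20%, lie near those of all genes (38.1% and 19.0%). MXD1, which competes with MYC for MAX and represses shared targets, had levels of 7.91, 7.89 and 7.95 untreated, 9.07, 8.82 and 8.58 with carnosic acid, and 9.83, 9.78 and 9.41 with the extract. It rose by 1.76 ± 0.13 (log2, SE) with the extract and 0.90 ± 0.13 with carnosic acid (adjusted p = 7.76e-07 and 0.000524), and differed between them by 0.85 (adjusted p = 0.000694). MAX, their common partner, rose by 0.38 with the extract (adjusted p = 0.00300) and 0.33 with carnosic acid (adjusted p = 0.0152, but 0.0582 without carnosic acid replicate 1). RUVBL1, a cofactor of MYC, fell by 0.69 and 0.48 (adjusted p = 9.09e-06 and 0.000524). USP28, a deubiquitinase that stabilises MYC, fell by 0.57 with the extract (adjusted p = 0.00153) and was also lower there than with carnosic acid (-0.60, adjusted p = 0.00271).

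**Figure D4:**
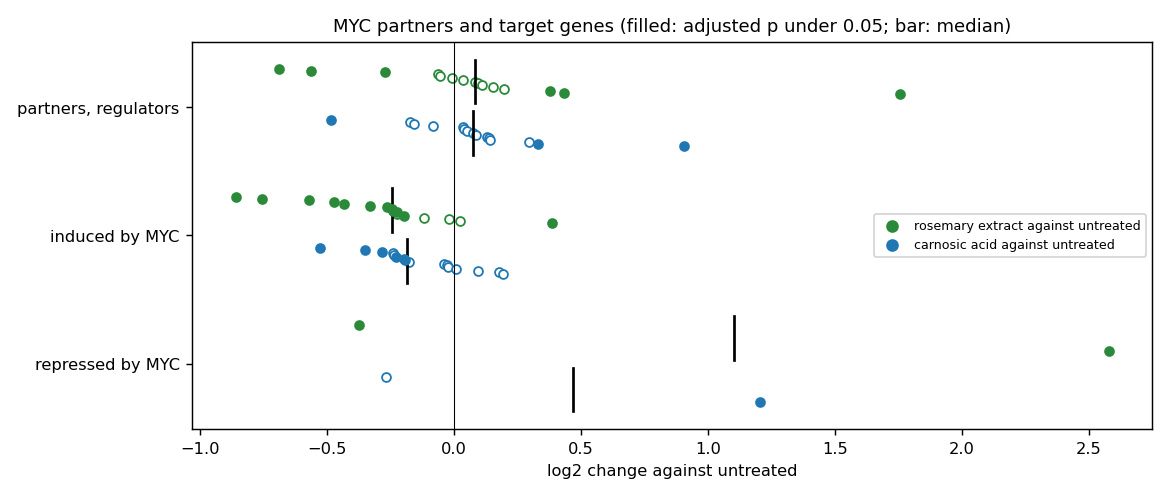
Log2 change against untreated (horizontal axis) of tested MYC partners, genes induced by MYC and genes repressed by MYC, for rosemary extract (green) and carnosic acid (blue), filled where the adjusted p was under 0.05, with bars at list medians. Among induced genes the filled points lie below 0 except SHMT2 at 0.39, and the median is -0.24 with the extract and -0.19 with carnosic acid.

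Of 16 tested genes that MYC is known to induce, 11 were lower and 1 higher with the extract, and 6 were lower with carnosic acid. Of all genes 16.3% were lower and 21.8% higher with the extract, and 6.12% lower with carnosic acid. FBL, the nucleolar methyltransferase fibrillarin, had levels of 11.52, 11.66 and 11.63 untreated, 10.96, 11.08 and 11.18 with carnosic acid, and 10.65, 10.72 and 10.86 with the extract. It fell by 0.86 ± 0.07 (log2, SE) and 0.53 ± 0.07 (adjusted p = 1.94e-06 and 0.000367). MRTO4, a ribosome assembly factor, fell by 0.76 and 0.35 (adjusted p = 3.34e-06 and 0.00331). With the extract the mitochondrial prohibitin gene PHB1 (-0.57) and the cell cycle kinase gene CDK4 (-0.48) fell, and SHMT2, a serine hydroxymethyltransferase, rose by 0.39 (adjusted p = 1.94e-05, 0.000269 and 0.000887). The carnosic acid count was 2 without carnosic acid replicate 1 and 3 without replicate 2, and under median centring 3 genes were lower and 1 higher. Between the treatments 5 genes were lower with the extract (31.25% of those tested), where 9.07% of all genes were lower. The count was 3 when the first or second extract array, or replicate 2 or 3 of carnosic acid, was left out. Of genes that MYC is known to repress, NDRG1 rose by 2.58 ± 0.13 with the extract and 1.20 ± 0.13 with carnosic acid (adjusted p = 8.86e-08 and 0.000119). Its levels were 5.99, 6.11 and 6.08 untreated, 7.53, 7.35 and 6.91 with carnosic acid, and 8.65, 8.74 and 8.52 with the extract, with no overlap. NDRG2, the other of 2 repressed genes tested, was lower with the extract by 0.38. The part of MYC in these values was not tested.

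The cell line label was set beside marker genes. Of 13 intestinal epithelial markers 10 had a named row, all above the dim limit, with EPCAM at 11.36 ± 0.02 and KRT18 at 12.59 ± 0.05 (SD, n = 3) in untreated cells. EPCAM and KRT18 were the brightest of the list there, and CDX2, at 5.77 ± 0.12, was the dimmest. With the extract 1 of the 10 was called higher and 4 lower, and with carnosic acid 2 higher and 3 lower, so 50% were called beside 38.1% and 19.0% of all genes. VIL1, a microvillus protein, fell by 1.29 and 0.35 (adjusted p = 1.52e-07 and 0.00680), and KRT20, a keratin of differentiated intestinal cells, rose by 0.77 and 0.88 (adjusted p = 8.13e-07 and 2.58e-06). The list's mean level lay between 8.56 and 8.64 on untreated arrays, 8.54 and 8.59 with carnosic acid, and 8.34 and 8.46 with the extract. Of 17 markers of leukocytes, fibroblasts and endothelium 8 were named and 4 lay above the limit, and of these CD68, also a lysosomal protein, rose by 1.89 and 1.24 with the extract and carnosic acid (adjusted p = 3.29e-08 and 4.20e-06). The mean of the 2 named leukocyte markers lay between 6.42 and 6.48 untreated, 6.80 and 7.09 with carnosic acid, and 7.12 and 7.36 with the extract. CD14, the other of them, was not called (-0.31 and -0.27). The part of these marker shifts in the results above was not tested.

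**Figure D5:**
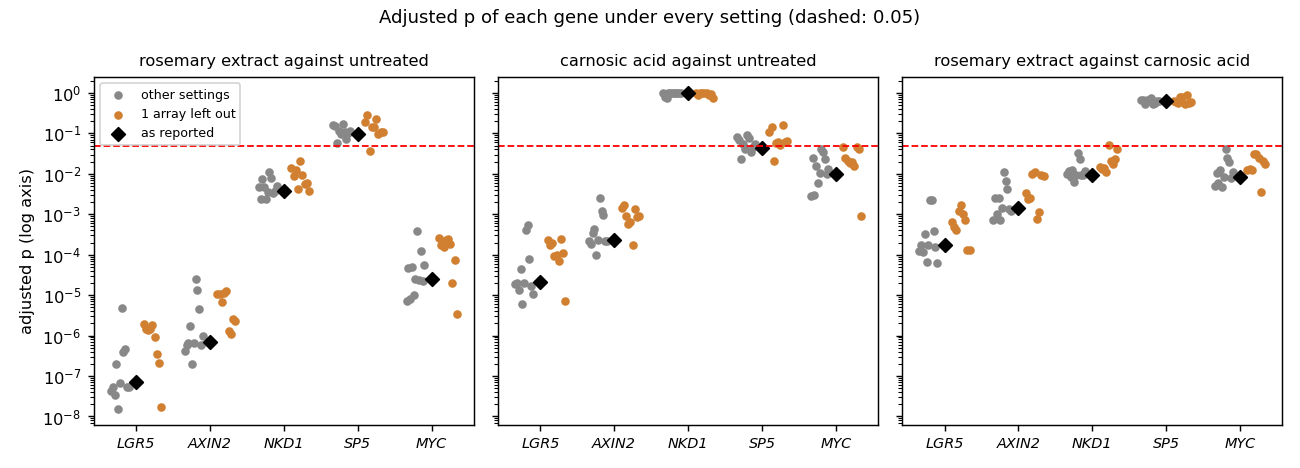
Adjusted p (vertical log axis) of the 5 genes in each comparison as reported (diamonds), under other settings (grey) and with 1 array left out (orange), with a dashed line at 0.05. LGR5, AXIN2 and MYC stay under the line in all 3 comparisons, whereas points of SP5 with carnosic acid lie on both sides (0.0209 to 0.158) and NKD1 between the treatments reaches 0.0507.

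LGR5, AXIN2 and MYC kept their direction and their calls in all 3 comparisons under each of the 20 alternatives tried, which include leaving out each array in turn. The highest adjusted p of MYC among them was 0.000379 with the extract, 0.0456 with carnosic acid and 0.0418 between the treatments.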

How the data were processed

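RNA from 9 HT-29 cultures was hybridised to Affymetrix gene arrays. The authors made the deposited log2 values by RMA in the Bioconductor package oligo, per the labels; that they are log2 was read from their range. RMA corrects background, equalises array distributions and summarises probes. No label names versions. Array medians over 53617 rows were 4.82 to 4.90, 0 pairs of arrays were identical, and the number of arrays limits precision.

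Rows were named through the platform annotation (16098 with 1 symbol, 0 with several, 37519 unnamed here), and all 16098 identifiers matched RefSeq's GRCh38.p14 table with 0 symbols changed. The brightest row per gene was kept, and the lowest 25% of genes were left out. Groups were fitted together with limma 3.58.1 in R 4.3.3 (lmFit, eBayes with trend, 6 residual degrees of freedom), two-sided, with Benjamini-Hochberg adjustment over 11163 genes and a threshold of 0.05. The fit was tested on simulated data. P-values set a difference of group means against the spread among arrays of the same group, all from 1 cell line.

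The members and lists were chosen with earlier results of these data known. Named are the 5 genes, up to 5 genes per list with the smallest p against untreated (2 between treatments), and the genes most alike by Pearson's r (5 for LGR5, 3 for others), without uncharacterised loci. Chosen outside this rule, after their values were seen, were MYB, FOSL1, SOX9, ASCL2, RNF43, APC, AMER1, OLFM4 and SMOC2. So were the markers EPCAM, KRT18, KRT20, CDX2, VIL1, CD68 and CD14. The promoter window is RefSeq's. Alternatives covered scaling, the dim filter, rows per gene, features tested, arrays fitted, the variance model, a replicate block and leaving out each array. Centring over tested genes was added after seeing the data.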

Additional observations from a re-analysis of the deposited data

How the results depend on the processing

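LGR5, AXIN2 and MYC kept every call and direction under all 20 alternatives. SP5 against untreated with carnosic acid (-0.31, adjusted p = 0.0431) lost its call with median centring (-0.27, adjusted p = 0.0699), with cyclic loess (-0.26, adjusted p = 0.0790) and, at -0.31, without the dim filter (0.0547), with all rows tested (0.0932), with only the 6 arrays compared (0.0780) and with the replicate block (0.0536). With 1 array left out it ranged from -0.38 to -0.24. With the extract it ranged from -0.29 to -0.15. SP5 has no value with the lowest 50% left out. NKD1 with carnosic acid lay at 0 and changed sign under cyclic loess (-0.0038) and centring over the genes tested (-0.042), and with 1 array left out ranged from -0.024 to 0.055. Between the treatments NKD1 ranged from 0.31 to 0.43 with 1 array left out. RNF43 with the extract changed sign under cyclic loess (-0.027), centring over the genes tested (-0.016), and with 1 array left out ranged from -0.024 to 0.051. The cause of these changes was not tested.

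With all rows tested, more features than named genes, 7676 were called with the extract against 4256. With 1 array left out 1385 to 2124 genes were called with carnosic acid, the lowest without carnosic acid replicate 1. Among carnosic acid arrays, replicate 3 lay nearest to untreated for LGR5, MYC, ROR1, FBL, MXD1 and NDRG1, so their values there are not separate observations. For AXIN2, PROM1 and CEMIP another carnosic acid array lay nearest. Centring over the genes tested, chosen after seeing the data, gave 1207 higher and 1098 lower calls with carnosic acid, where the fit as reported gave 1440 and 683. Median centring over all rows moved that split the other way, to 1650 and 473. Pairing of arrays by replicate number was examined after each group's mean was removed from each gene's values. Among the 9 same-numbered pairs 3 correlated above 0.1 (from -0.22 to 0.24). Of the closest matches, each sought among the 3 arrays of another group, 6 of 18 had the same number. No clear pairing was thus seen, though so few arrays cannot exclude one. With the replicate as a block 4226, 2194 and 1947 genes were called in the 3 comparisons. With the extract the block added a call of ZNRF3 (0.21, adjusted p = 0.0375) and ended that of FZD8 (-0.27, adjusted p = 0.0569). FZD8 also lost its call under cyclic loess, median centring, all rows tested and only the 6 arrays compared (adjusted p from 0.0518 to 0.0826), PYGO2 under median centring and all rows tested (0.0644 and 0.0717), and GSK3B with carnosic acid under centring over the genes tested, all rows tested and eBayes without trend (0.0579, 0.0844 and 0.0611).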

Other observations

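SP5 belongs to the SP and KLF family of GC-box binding factors, and 11 of the 12 other family genes listed were tested. With the extract 4 were higher and 3 lower, and with carnosic acid 2 were higher and 0 lower, beside median log2 changes of 0.11 and 0.084. The shares called were 63.6% and 18.2%, where 38.1% and 19.0% of all genes were called. KLF9, a glucocorticoid-responsive repressor, had levels of 5.68, 5.50 and 5.17 untreated, 5.79, 5.64 and 5.44 with carnosic acid, and 6.71, 6.25 and 6.34 with the extract. It rose by 0.99 ± 0.15 (log2, SE) with the extract (adjusted p = 0.000349) and differed between the treatments by 0.81 (adjusted p = 0.00360). SP4 was lower with the extract by 0.93 ± 0.12 against untreated (adjusted p = 6.88e-05) and by 0.73 against carnosic acid (adjusted p = 0.00123). SP1, the founding member, was higher with carnosic acid by 0.34 ± 0.05 (adjusted p = 0.000959) and lower with the extract than with carnosic acid by 0.23 (adjusted p = 0.0101). The extract count of 7 calls was 4 without untreated replicate 1, 2 or 3 or rosemary extract replicate 1, and 3 without rosemary extract replicate 2 or with all rows of the array tested. Under median centring 1 gene of the family was lower with the extract.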
